A study of Macaca mulatta with 27 samples.

Results

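The subject of this account is a set of 7 rhesus macaque genes, CLN3, GRINA, ZFTA, TRABD2A, FOXN1, UGGT1 and FZD3, each represented by at least 1 microarray probe set whose signal separated embryonic stem cell lines of one dam from those of another. The members were chosen on measured values, namely the difference between the quadruplet and triplet families of lines, so the family differences below are a description and carry no test. The platform annotation gives these genes 14 probe sets among 52707, of which 7 are the ones chosen on the family difference and 7 are further probe sets of the same genes. In all, 3 genes had 1 probe set, 1 gene had 2 and 3 genes had 3. After a filter on dim signal (signal over the median of its array on at least 3 arrays), 12 of the 14 were tested, among 32856 probe sets and 11317 genes.

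RNA came from 10 lines of embryonic stem cells derived from inner cell masses, a separate blastocyst for each, and kept on mouse embryonic fibroblasts, in medium with bFGF, Activin A and hLIF, and was hybridised to 27 Affymetrix rhesus arrays. The quadruplet family (sire M106, dam F88) comprised lines 2706 and 3106 (male) and 2906 and 3006 (female), with 10 arrays. The triplet family (sire M106, dam F244) comprised lines 106 and 306 (male) and 206 (female), with 8 arrays. Line 2406 (female, sire M106, dam F77), line 3806 (female, sire M106, dam F32) and line 906 (male, sire M36, dam F183) were the only lines of their dams, with 3 arrays each. Line 2906 had 1 array and line 206 had 2. The labels name no transgene and no treatment. Since all lines of a family share both parents and 1 family stands for each dam, an effect of the dam and of anything else common to a family cannot be told apart.

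The genes have separate known roles. GRINA belongs to the TMBIM family of membrane proteins of the endoplasmic reticulum and Golgi, known for limiting calcium release and cell death. UGGT1 is the folding sensor of the endoplasmic reticulum, which puts a glucose back on glycoproteins that are not yet folded so that calnexin and calreticulin bind them again. CLN3 is a lysosomal membrane protein, and its loss causes juvenile neuronal ceroid lipofuscinosis in humans. FZD3 is a Frizzled receptor for WNT proteins, known for planar cell polarity and axon guidance. TRABD2A, also called TIKI1, is a membrane protease that cuts and inactivates WNT proteins. FOXN1 is the transcription factor that thymic epithelium and hair follicles need, and ZFTA encodes a zinc finger protein known from its gene fusions in human ependymoma.

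Signals were analysed as log2(signal + 16), on which scale differences of dim probe sets are understated. The share of probe sets that the authors' detection call scored present lay between 38.2% and 46.9%. The GAPDH 3' to 5' ratio, which is higher where RNA is degraded or copied incompletely, was over 3 on 6 arrays, with its highest value of 13.3 on the array of line 2906. The median signal was highest on arrays c of lines 106, 206, 906 and 306. Among 8 tested markers of pluripotent cells, 0 differed between the families in limma at an adjusted p of 0.05 and 0 at an unadjusted p of 0.05. Of all 11317 genes tested, 8 differed adjusted and 963 unadjusted. The 8, which recur below as background, include the members GRINA, ZFTA, TRABD2A and FOXN1, whose chosen probe set was their only tested one. POU5F1 averaged 14.38 ± 0.14, SOX2 13.99 ± 0.24, DNMT3B 13.65 ± 0.22 and NANOG 8.98 ± 0.31 on the log2 scale (SD, n = 10 lines).

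Detection calls divided the 7 chosen probe sets. Those of CLN3, ZFTA, TRABD2A, FOXN1 and UGGT1 were present on 0 of 27 arrays, in both families and in the lines of the other dams. The GRINA probe set was present on 27 of 27 arrays. The FZD3 probe set was present on 5 of 27 arrays: 0 of 10 quadruplet arrays, 4 of 8 triplet arrays, 1 of 3 arrays of line 2406, and none of lines 3806 and 906. For comparison, 16.2% of the 32856 tested probe sets were present on 0 arrays and 46.0% on all of them. Of the 25 probe sets that differed between the families in limma (0.0761% of those tested), 9 were present on 0 arrays and 8 on all 27. All 7 chosen probe sets are among these 25, with 5 of them among the 9 and 1, GRINA, among the 8. The 25 are therefore no separate background for the members. At the 5 chosen probe sets never scored present, the values below are therefore signals that the authors' software did not tell from background, and no fold change is given. Of these 5 genes, CLN3 and UGGT1 were scored present at other probe sets, described below. The description of these genes as following the maternal family thus rested on a probe set scored present for GRINA and in part for FZD3, and for the other 5 it rested on the signal of a probe set not scored present.

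By the direction of the difference, 6 of the 7 chosen probe sets were lower in the quadruplet lines and 1, GRINA, was higher. Line means of the families did not overlap for 7 of 7, against 11.9% of all probe sets tested. Single arrays did not overlap for 3 of 7 (CLN3, GRINA and FOXN1), against 0.393% of all tested. Nothing is read from these counts, since the choice used the same contrast.

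**Figure D1:**
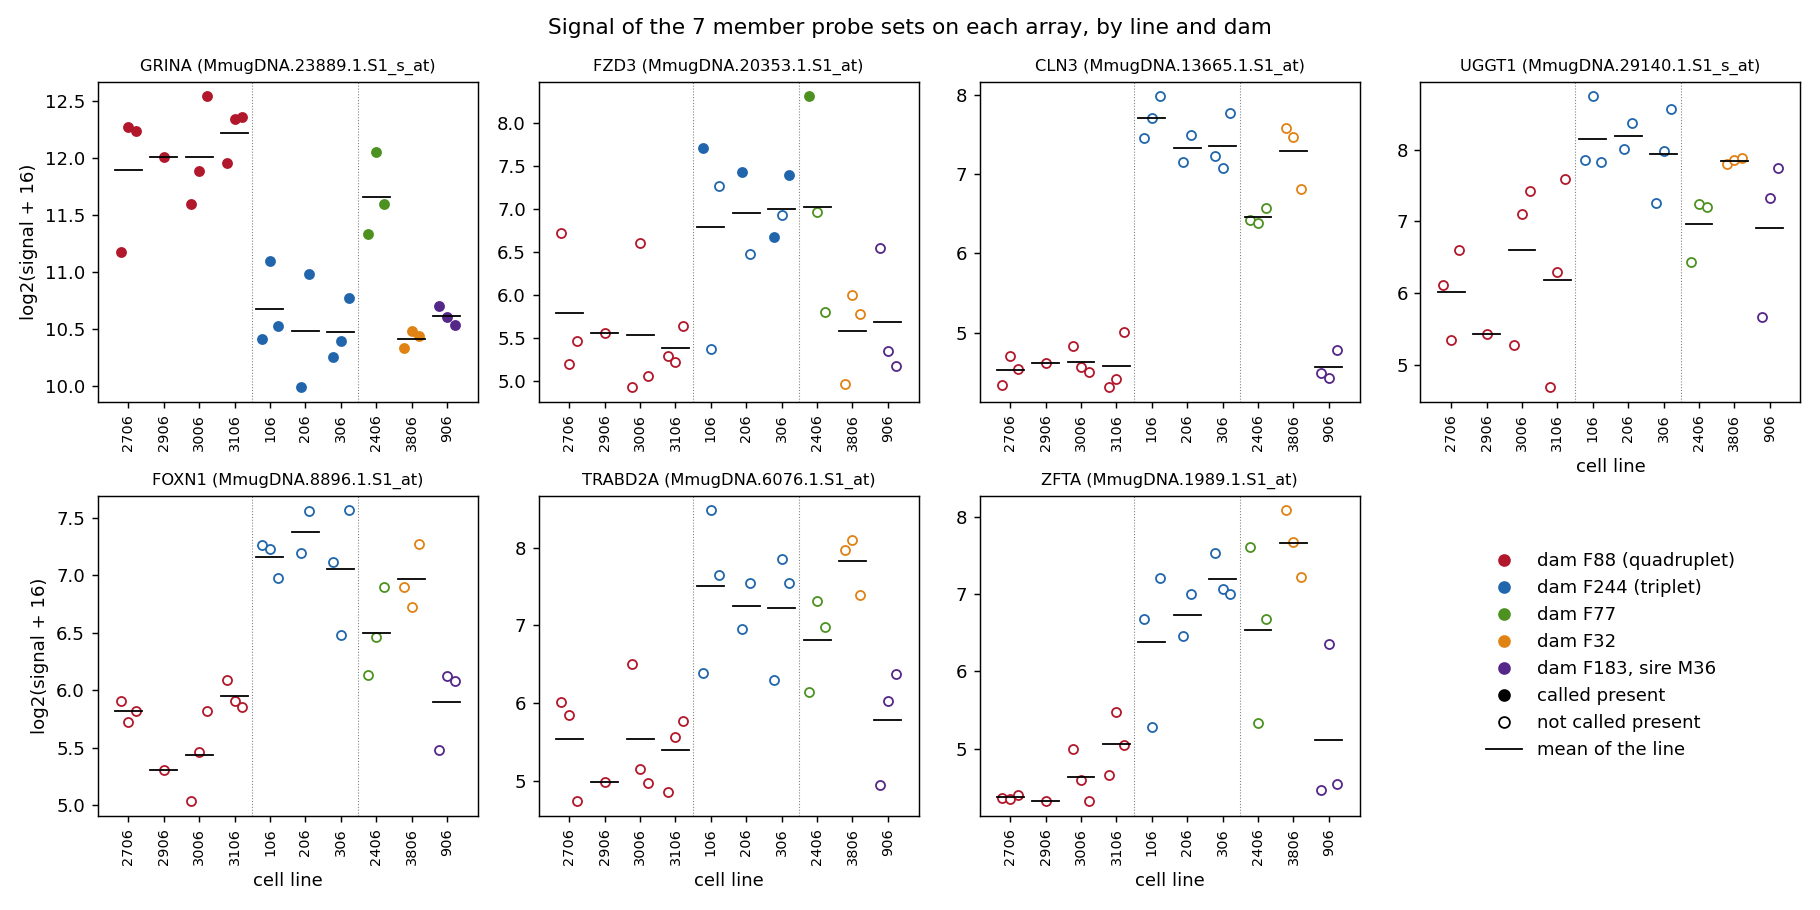
Signal of the 7 chosen probe sets as log2(signal + 16) on each of the 27 arrays, by line, with lines of dam F88 at the left, then those of dam F244, then the 3 lines of other dams. Filled points were scored present and open points were not, bars are line means, and vertical axes differ between panels. Only GRINA has filled points on all arrays, FZD3 has 5, and the other genes have none.

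GRINA was the gene whose chosen probe set was scored present on every array. That probe set (MmugDNA.23889.1.S1_s_at) had a signal of 2300.3 at the lowest, 4451.55 at the median and 5935.9 at the highest on the 10 quadruplet arrays, against 1002.6, 1405.65 and 2173.1 on the 8 triplet arrays. The arrays of the families did not overlap, although the lowest quadruplet array (array a of line 2706) and the highest triplet array (array c of line 106) lay close together. On line means GRINA was 12.03 ± 0.14 in the quadruplet family (SD, n = 4 lines) and 10.55 ± 0.12 in the triplet family (n = 3), a difference of 1.49 ± 0.15 (SE), or 2.80-fold higher in the quadruplet lines. The suffix of this probe set marks one whose probes may match more than 1 transcript, so transcripts with shared sequence cannot be told apart. Its array gene identifier differs from that of GRINA in the current gene table, and the match is by symbol. The chosen UGGT1 probe set and MmugDNA.13665.1.S1_s_at of CLN3, described below, carry the same suffix and the same limit.

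Outside the families, the GRINA signal was 2571.6, 4237.1 and 3072.7 on the arrays of line 2406, 1273.1, 1415.7 and 1370.2 on those of line 3806, and 1649.1, 1539.0 and 1466.5 on those of line 906. All 3 arrays of line 2406 lay within the range of the quadruplet arrays and those of lines 3806 and 906 within the range of the triplet arrays. Of the 32856 probe sets, 1550 (4.72%) differed among these 3 lines by limma's F test over 9 arrays, and 7908 did so at an unadjusted p of 0.05. By that test, which the choice of members did not use, 2 of the 7 chosen probe sets differed, GRINA and CLN3, and 5 did at an unadjusted p of 0.05. At CLN3, ZFTA, TRABD2A, FOXN1 and FZD3 the quadruplet signals, 89.5 at most, were under the lowest array median of 94.1. These probe sets thus passed the filter on dim signal only through arrays of other lines, where they were brighter. Nothing in the labels gives the arrays of a line separate cultures, and the p-values of the F test measure the spread between arrays, which may be technical. GRINA had an adjusted p of 0.0161, with a difference of 1.05 ± 0.20 (SE) for line 2406 minus 906, −1.24 ± 0.20 for 3806 minus 2406 and −0.20 ± 0.20 for 3806 minus 906. Arrays d and e of line 2406 had GAPDH ratios of 3.18 and 3.04, and without the arrays over 3 the adjusted p was 0.101. Without array e alone it was 0.0527. With the letter of the array as a block it was 0.342. Among these 9 arrays, letters b and e each stood on a single array. The letter block therefore left few degrees of freedom, and its p-values here and below do not measure an effect of letter.

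In the order of line means, GRINA was highest in line 3106 at 12.22, followed by 2906, 3006, 2706 and 2406 at 11.66, then 106 at 10.68, 906, 206, 306 and 3806 at 10.42. The single gap between neighbours that exceeded the spread between arrays of a line (pooled SD 0.385) was that between 2406 and 106. The tested probe sets of other genes whose line means were most like those of GRINA, by Pearson r over the 10 lines, were LOC698970 (0.938), TSSK3 (0.938) and PRPF38B (0.936). TSSK3 was present on 0 arrays. The points of such a correlation share families, arrays and scaling, and it is given as a description.

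Other genes of the TMBIM family were tested in the same fit. Of 5 listed TMBIM genes, 4 were tested. Of these 0 passed, also at an unadjusted p of 0.05, 2 being higher and 2 lower in quadruplet lines, with a median log2 difference of −0.012. The 2 with the largest differences were TMBIM4 at −0.23 ± 0.18 and FAIM2 at 0.23 ± 0.19. Over all 11317 genes tested the median difference was −0.0087, 51.2% were lower in the quadruplet lines, 8 passed the adjusted test and 963 the unadjusted one. With so few genes passing the adjusted test, 0 passing in a short list is not read as a result about that list.

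UGGT1 gave different readings at its 3 probe sets. The chosen one (MmugDNA.29140.1.S1_s_at) had signals of 9.8, 57.5 and 176.4 (lowest, median, highest) on the quadruplet arrays, against 136.9, 239.45 and 411.9 on the triplet arrays. The families overlapped: quadruplet arrays c of lines 3106 and 3006 were above the lowest triplet array, array a of line 306. Line means were 6.06 ± 0.48 in the quadruplet family (SD, n = 4 lines) and 8.09 ± 0.14 in the triplet family (n = 3), a difference of −2.03 ± 0.26 (SE).

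The spread between arrays of a line for this UGGT1 probe set (pooled SD 0.841) was the largest of the 7 chosen probe sets. Its signal was 70.2, 135.1 and 131.4 in line 2406, 206.6, 216.1 and 220.1 in line 3806, and 34.8, 144.4 and 197.7 in line 906. Line 906 alone thus spanned much of the distance between the families, and the F test among the 3 lines gave an adjusted p of 0.333. Array d of line 2906, its only one, and arrays a and c of line 3006 were among those with a GAPDH ratio over 3. So was triplet array c of line 106, which had the highest triplet signal, 411.9. Without the arrays over 3, and so without line 2906, the family difference was −1.55.

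The other UGGT1 probe sets were detected and separated the families less. MmugDNA.15617.1.S1_at, present on 25 of 27 arrays, averaged 7.61 ± 0.37 in the quadruplet lines and 7.90 ± 0.0087 in the triplet lines, a difference of −0.30 ± 0.22 (SE). MmugDNA.29141.1.S1_at, present on 25 of 27 arrays, averaged 8.20 ± 0.43 in the quadruplet lines and 8.71 ± 0.23 in the triplet lines, a difference of −0.51 ± 0.25 (SE). At both, line means of the families overlapped. Line 2906, with 1 array, read 7.07 at the former, against 7.72 to 7.91 in the other quadruplet lines. At the latter it was the highest quadruplet line, at 8.58. Whether the 3 probe sets differ from one another in their family difference was not tested.

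Genes that work with UGGT1 in the endoplasmic reticulum were read in the family fit, which 8 of all 11317 genes tested passed, and 963 unadjusted. Of 21 listed glycoprotein quality control genes 16 were tested, and 0 passed the adjusted limma test and 2 the unadjusted one, 11 being higher and 5 lower in quadruplet lines, with a median difference of 0.10. The largest differences were those of PRKCSH, the beta subunit of glucosidase II, at 0.88 ± 0.27 (adjusted p = 0.388), and MOGS, which encodes glucosidase I, at 0.51 ± 0.25 (adjusted p = 0.564).

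CLN3 had the widest family difference of the 7 chosen probe sets and the smallest spread between arrays of a line (pooled SD 0.278), at a probe set that was not scored present on any array. MmugDNA.13665.1.S1_at had signals of 3.9, 7.5 and 16.3 (lowest, median, highest) on the quadruplet arrays, against 118.3, 161.85 and 236.2 on the triplet arrays. The families lay far apart and did not overlap. Line means were 4.59 ± 0.046 in the quadruplet family (SD, n = 4 lines) and 7.46 ± 0.22 in the triplet family (n = 3), a difference of −2.87 ± 0.16 (SE).

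The CLN3 signal was 69.3, 67.2 and 78.8 on the arrays of line 2406, 175.3, 160.2 and 96.7 on those of line 3806, and 6.4, 5.6 and 11.6 on those of line 906. Line 906, with no parent in common with the quadruplet lines, was at their level. Line 3806 was close to the triplet level, and all arrays of line 2406 lay between the families, in the gap where neither family had an array. The F test among the 3 lines gave an adjusted p of 0.000991, with differences of 2.72 ± 0.22 (SE) for 3806 minus 906, 1.88 ± 0.22 for 2406 minus 906 and 0.83 ± 0.22 for 3806 minus 2406. With the array letter as a block, the adjusted p was 0.104.

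In the order of line means, CLN3 was highest in line 106 at 7.71, followed by 306, 206 and 3806 at 7.29, then 2406 at 6.45, then 3006, 2906, 3106, 906 and 2706 at 4.53. Gaps larger than the pooled SD of arrays within a line (0.278) separated 106 from 306, 3806 from 2406 and 2406 from 3006. The other 2 probe sets of CLN3 did not follow this order. MmugDNA.13665.1.S1_s_at, which carries the same design number and was present on 26 of 27 arrays, averaged 8.22 ± 0.30 in the quadruplet lines and 8.13 ± 0.11 in the triplet lines, a difference of 0.092 ± 0.19 (SE). MmugDNA.2519.1.S1_at, present on 1 of 27 arrays, averaged 8.65 ± 0.70 in the quadruplet lines and 8.98 ± 0.16 in the triplet lines, a difference of −0.34 ± 0.35 (SE). Line 2906, with 1 array, read 7.60 there, against 8.90 to 9.08 in the other quadruplet lines, which were at the triplet level.

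Of 20 listed ceroid lipofuscinosis and lysosome genes 12 were tested, and 0 passed the family test, also at an unadjusted p of 0.05. Among the 12, 7 were higher and 5 lower in the quadruplet lines, with a median difference of 0.031. Of all 11317 genes tested, 8 passed the adjusted test and 963 the unadjusted one. TFEB, a transcription factor that switches on lysosomal genes and was present on 0 arrays, had a difference of −0.60 ± 0.33, and LAMP2, a lysosomal membrane protein, one of −0.57 ± 0.26.

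FZD3 was lower in the quadruplet lines at 1 of its 3 probe sets. MmugDNA.20353.1.S1_at had signals of 14.5, 25.6 and 89.5 (lowest, median, highest) on the quadruplet arrays, against 25.5, 121.45 and 193.3 on the triplet arrays. Single arrays overlapped, since array c of line 106 read 25.5, near the quadruplet median, and quadruplet arrays a of line 2706 and b of line 3006 read 89.5 and 81.3. Line means were 5.57 ± 0.17 in the quadruplet family (SD, n = 4 lines) and 6.91 ± 0.11 in the triplet family (n = 3), a difference of −1.34 ± 0.16 (SE). Since no quadruplet array was scored present, no fold change is given, and the triplet level was itself scored present on 4 of 8 arrays.

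The FZD3 signal was 300.0, 109.0 and 39.7 on the arrays of line 2406, 15.2, 47.9 and 38.9 on those of line 3806, and 77.5, 24.7 and 20.0 on those of line 906. The spread within lines was wide (pooled SD 0.833), and in lines 106, 206, 906, 2406 and 2706 the highest array was array a. The F test among the 3 lines gave an adjusted p of 0.247. In the order of line means, 2406 at 7.02, 306, 206 and 106 stood above 2706 at 5.79, 906, 3806, 2906, 3006 and 3106 at 5.38. The only gap over the pooled SD lay between 106 and 2706.

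MmugDNA.16820.1.S1_at of FZD3 was present on all 27 arrays. It averaged 8.06 ± 0.12 in the quadruplet lines and 8.08 ± 0.21 in the triplet lines, a difference of −0.019 ± 0.17 (SE) and a ratio of 0.987. The third, MmugDNA.24490.1.S1_at, present on 4 arrays and too dim to be tested, averaged 6.01 ± 0.39 in the quadruplet lines and 5.67 ± 0.28 in the triplet lines. The detected probe set of this receptor thus had overlapping line means in the families.

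TRABD2A, the WNT protease, had 2 probe sets, both present on 0 arrays. MmugDNA.6076.1.S1_at had signals of 10.7, 25.35 and 74.5 (lowest, median, highest) on the quadruplet arrays, against 62.4, 170.25 and 340.3 on the triplet arrays. Array a of line 3006 was above the lowest triplet arrays, so that the families overlapped slightly. Line means were 5.36 ± 0.26 in the quadruplet family (SD, n = 4 lines) and 7.32 ± 0.15 in the triplet family (n = 3), a difference of −1.96 ± 0.19 (SE).

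Its signal was 54.7, 143.3 and 109.7 in line 2406, 235.1, 258.3 and 152.0 in line 3806, and 14.8, 49.3 and 66.9 in line 906. Line 3806 had the highest line mean of all 10, at 7.82, and the largest drop between neighbours, the only one over the pooled SD of 0.714, lay between 2406 and 906. The F test among the 3 lines gave an adjusted p of 0.0513. It passed at 0.0236 with a pseudocount of 64, 0.0400 after quantile normalization, 0.0306 with arrays centred on their median and 0.0283 without array a of line 2406. Under the other 13 of 17 alternatives it stayed over the threshold, up to 0.254 with the array letter as a block. The other probe set, MmugDNA.38738.1.S1_at, was too dim to be tested and averaged 4.75 ± 0.28 in the quadruplet lines and 5.15 ± 0.12 in the triplet lines.

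Other genes of WNT signalling were read in the family fit, which 8 of all 11317 genes tested passed, and 963 unadjusted. Of 25 listed Frizzled and planar cell polarity genes 19 were tested, and 0 passed the adjusted limma test and 3 the unadjusted one. Of these 19, 12 were higher and 7 lower in the quadruplet lines, with a median difference of 0.18. ROR2, a WNT5A receptor, had a difference of 1.05 ± 0.41 (adjusted p = 0.475), and FZD7, a Frizzled receptor of pluripotent cells, one of 0.94 ± 0.38 (adjusted p = 0.483). Of 20 listed WNT antagonists 13 were tested, and 0 passed the adjusted test and 1 the unadjusted one, with 9 higher and 4 lower and a median of 0.14. DKK1, a secreted inhibitor of the LRP co-receptors, had a difference of 0.89 ± 0.54, and SFRP2, which binds WNT proteins, one of −0.61 ± 0.25.

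FOXN1 had a single probe set, MmugDNA.8896.1.S1_at. Its signals were 16.8, 40.4 and 52.1 (lowest, median, highest) on the quadruplet arrays, against 73.1, 131.95 and 172.9 on the triplet arrays. The families did not overlap, and the distance between the highest quadruplet and the lowest triplet array was small beside the range within the triplet lines. Line means were 5.63 ± 0.31 in the quadruplet family (SD, n = 4 lines) and 7.19 ± 0.16 in the triplet family (n = 3), a difference of −1.57 ± 0.20 (SE).

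The FOXN1 signal was 54.2, 72.4 and 103.2 in line 2406, 102.8, 89.9 and 138.6 in line 3806, and 28.7, 53.6 and 51.8 in line 906. Line 906 was within the range of the quadruplet line means and line 3806 just under that of the triplet ones. The F test among the 3 lines gave an adjusted p of 0.0897, which was 0.0488 without array a of line 2406 and over the threshold under the other 16 of 17 alternatives, up to 0.260. Of the genes linked to FOXN1, 6 of 10 listed were tested and 0 passed the adjusted family test, 1 the unadjusted one, 5 being higher and 1 lower in quadruplet lines, with a median of 0.066. Of all 11317 genes tested, 8 passed the adjusted test and 963 the unadjusted one. PSMB11, the thymus proteasome subunit that FOXN1 activates, was present on 0 arrays and had a difference of −0.43 ± 0.21. CCL25, a chemokine made in thymus and gut, had one of 0.46 ± 0.19.

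ZFTA also had a single probe set, MmugDNA.1989.1.S1_at. Its signals were 4.0, 6.65 and 28.5 (lowest, median, highest) on the quadruplet arrays, against 22.8, 112.2 and 168.5 on the triplet arrays. The overlap came from 2 arrays, array b of line 3106 at 28.5 and array c of line 106 at 22.8. Line means were 4.60 ± 0.34 in the quadruplet family (SD, n = 4 lines) and 6.77 ± 0.41 in the triplet family (n = 3), a difference of −2.17 ± 0.25 (SE).

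The ZFTA signal was 179.4, 24.4 and 86.2 in line 2406, 254.6, 187.8 and 132.6 in line 3806, and 6.0, 65.6 and 7.3 in line 906. In line 906, 2 arrays read as the quadruplet arrays did and array c read in the triplet range. The F test among the 3 lines gave an adjusted p of 0.0934, with 3806 minus 906 at 2.54 ± 0.63 (SE). The adjusted p was 0.0496 without array a of line 2406 and over the threshold under the other 16 of 17 alternatives, up to 0.416.

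Taken by line, the 3 other dams did not fall on 1 side. Line 3806 was nearest to the triplet mean at 6 of the 7 chosen probe sets, all but FZD3, and line 906 was nearest to the quadruplet mean at 6 of 7, all but GRINA. Line 2406 was nearest to the triplet mean at 5 and to the quadruplet mean at 2, GRINA and UGGT1. Few of these means lay inside a family's own range: for 2406 ZFTA in the triplet range, for 3806 FZD3 in the quadruplet range, and for 906 GRINA in the triplet range and CLN3, FOXN1 and FZD3 in the quadruplet range. With 1 line for each of these dams, dam and line cannot be told apart.

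**Figure D2:**
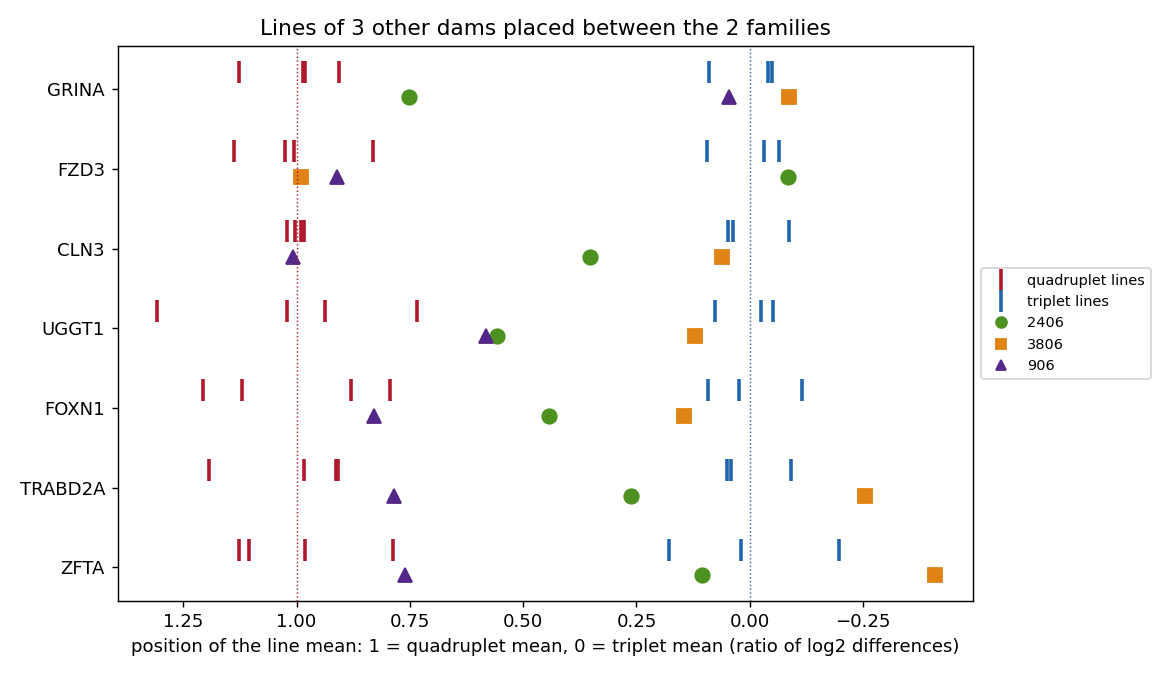
Position of each line mean between the family means for the 7 chosen probe sets, where 1 is the quadruplet mean and 0 the triplet mean of log2(signal + 16). Ticks are the lines of the families and symbols the lines 2406, 3806 and 906. Line 3806 lies near or beyond the triplet end for all but FZD3, line 906 nearer the quadruplet end for all but GRINA, and line 2406 in between for most.

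The chosen probe sets also resembled each other across the 10 lines. Pearson r of line means was 0.965 between CLN3 and TRABD2A, 0.955 between ZFTA and TRABD2A and 0.950 between CLN3 and FOXN1. GRINA ran opposite to the other 6, with r between −0.872 (UGGT1) and −0.491 (FZD3), and FZD3 had the lowest r with the other 5 lower ones, between 0.619 (ZFTA) and 0.757 (CLN3). Since all were chosen for a family difference, the choice itself favours high values of r among them.

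Among all tested probe sets with 1 gene symbol, the nearest to CLN3 were TRABD2A (r = 0.965), LOC706091 (0.960) and FOXN1 (0.950). The nearest to TRABD2A were CLN3, MYADM (0.960) and RHCE (0.956), and to ZFTA they were TRABD2A, PPP1R37 (0.926) and GPC6 (0.923). VKORC1L1 (0.954), NGB (0.952) and DICER1 (0.952) were nearest to FOXN1, and OR6X1 (0.972), NGB (0.967) and LOC700411 (0.964) to UGGT1. For FZD3 they were CSMD2 (0.949), POLR3B (0.941) and LOXL1 (0.930). Of these, MYADM, RHCE, NGB, OR6X1 and CSMD2 were present on 0 arrays, whereas GPC6, VKORC1L1, DICER1, POLR3B and LOXL1 were present on all 27.

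The 7 further probe sets of the member genes are the values that the choice did not select. Their family differences lay between −0.51 and 0.34, and line means of the families overlapped at all 7. In the F test among lines 2406, 3806 and 906, 0 of the 5 tested differed by limma, adjusted or unadjusted. Of all 32856 probe sets tested, 1550 (4.72%) differed adjusted and 7908 unadjusted, so nothing is read from this count. For CLN3, UGGT1 and FZD3, the probe sets detected on 25 or more arrays were among these 7 and not among the chosen ones.

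**Figure D3:**
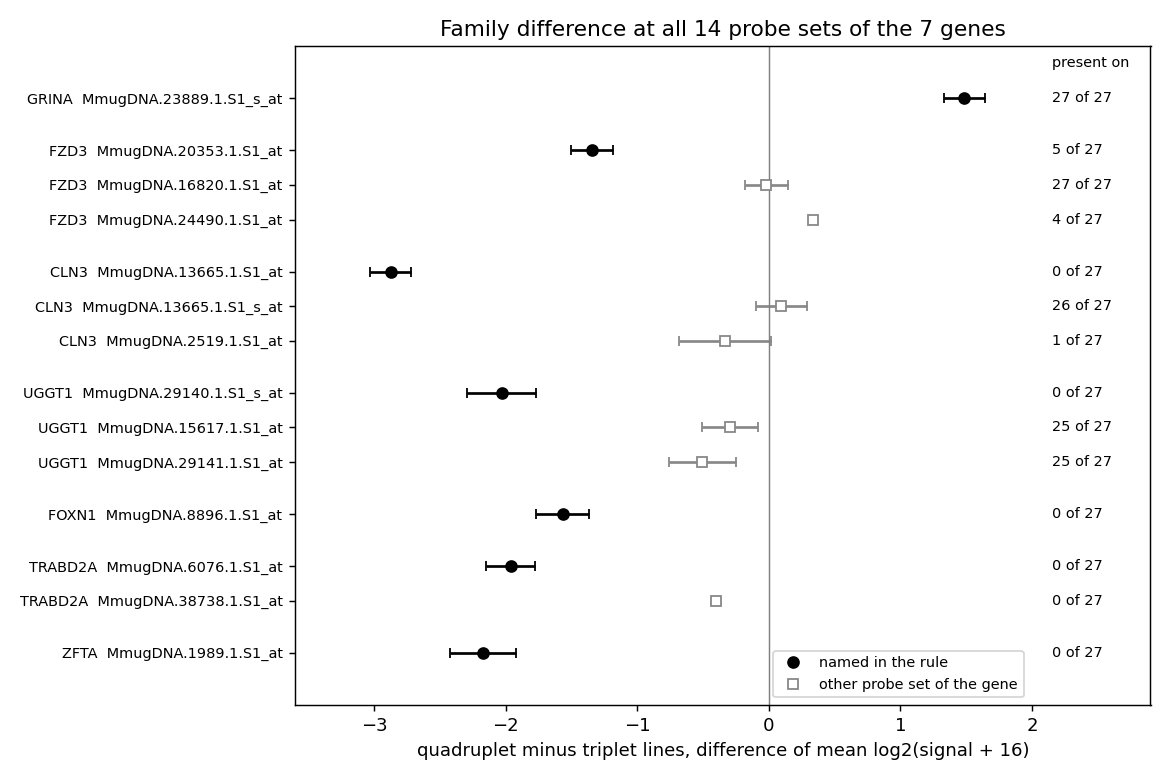
Family difference of the mean log2(signal + 16), quadruplet minus triplet lines, at all 14 probe sets of the 7 genes, with the SE of the limma fit for the 12 tested (no error is drawn for the 2 untested). Filled circles are the chosen probe sets and open squares the others, and the numbers at the right count the arrays scored present. The open squares lie between −0.51 and 0.34.

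Sex crossed both families, and the members were also read by sex. The fit had no term for the dam, so family differences counted as spread. For the chosen CLN3 probe set the SE was 0.78 by sex and 0.16 by family. Among all probe sets 19 (0.0578%) differed between the 5 male and the 5 female lines in limma and 1982 did at an unadjusted p of 0.05. Of the 12 tested member probe sets 0 differed, adjusted or unadjusted, with adjusted p between 0.775 and 0.999. Beside so low a share of all probe sets, nothing particular to the members is read from this count. At the 7 chosen ones the male minus female difference lay between −0.35 and 0.058.

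Markers of fibroblasts, which feeder or differentiated cells would bring, were read beside the members. Of 13 tested, 10 were lower in the quadruplet lines with a median difference of −0.32, 1 passed the adjusted limma test and 3 the unadjusted one. COL1A2 was the one, at 9.79 ± 0.46 in the quadruplet lines and 11.91 ± 0.29 in the triplet lines (adjusted p = 0.0450). Over all 11317 genes tested, 8 passed the adjusted test and 963 the unadjusted one. COL1A1 differed by −1.60 ± 1.02 and VIM by −0.054 ± 0.38. The summed signal of the list lay between 32003 and 57541 in the quadruplet lines and between 53954 and 60911 in the triplet lines, and was 45409 in line 2406, 41622 in 3806 and 48700 in 906. None of the 14 markers on the array was present on 0 arrays. Among lines 2406, 3806 and 906, 3 of the 13 tested markers differed by limma's F test, COL1A2 among them (adjusted p = 0.0168). Of all genes tested, 4.63% did. The feeder cells were mouse and the array rhesus, and how far mouse RNA is read by these probe sets was not tested. The part of other cells in the family differences was not tested, and fewer cells of a type and less RNA per cell cannot be told apart in these samples.

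Markers of thymic epithelium and neural cells were read for FOXN1 and for FZD3 and GRINA, beside 8 of all 11317 genes passing adjusted and 963 unadjusted. Of 5 tested thymic markers 0 passed the adjusted family test and 1 the unadjusted one, with PSMB11 present on 0 arrays and a summed signal between 18342 and 24161 in the quadruplet lines and between 18845 and 19952 in the triplet lines. Of 3 tested neural markers 0 passed, adjusted or unadjusted, with NEUROG2 present on 0 arrays and a summed signal between 782 and 1550 in the quadruplet lines and between 732 and 1119 in the triplet lines. The thymic sum was mostly EPCAM and CCL25, with log2 means over lines of 13.56 and 12.77, and the neural sum mostly TUBB3, at 9.51. These sums are therefore no measure of either cell type.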

How the data were processed

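Per the labels' protocols, 300 ng of RNA from each of 27 samples was put on an Affymetrix rhesus array. The authors deposited intensity values (signals), made with GCOS per the submitters' processing notes, whose version is not given in the sources used here. With 2% of values left out at each end, the mean intensity was 500 on every array. A second deposited table holds the same intensities with the authors' present, marginal and absent calls, and 1 blank cell was filled from it. After 158 controls were set aside, 24956 of 52707 probe sets had 1 gene symbol, 361 several and 27390 none in the platform annotation, and 24616 matched RefSeq.

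Values were taken as log2(signal + 16) and tested with limma 3.58.1 in R 4.3.3, with Benjamini-Hochberg adjustment over all 32856 probe sets with a signal over the array median on 3 or more arrays, at a threshold of 0.05. Families and sexes were compared on line means, and lines 2406, 3806 and 906 on single arrays. In gene lists and markers, the brightest tested probe set stood for a gene. The number of lines and arrays limits the precision. The steps were also run on simulated data with planted changes. Those values were drawn independently, with no other effect shared by a family or an array letter, so the run cannot speak to such effects here. The members and lists were chosen with earlier results of these data known. Named genes were all probe sets of the members, the 3 probe sets most like each chosen one, list genes past the family test or else up to 2 with the largest difference, and marker genes. In 77 pairs of arrays sharing a letter, deviations from line means correlated between −0.243 and 0.529. The median was 0.064, against −0.026 for pairs with other letters. Letters were not taken as pairs, and whether arrays of a letter share an effect was not tested. Alternatives were pseudocounts of 1 and 64, other filters, normalization, left-out arrays or lines, blocks, weights and sex as a covariate.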

Additional observations from a re-analysis of the deposited data

Results flagged for a closer look

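In 42 groups checked (each of the 14 member probe sets in the quadruplet, male and female lines), 4 had a lowest line whose gap to its nearest neighbour took up more of the group's range than Dixon's critical value allows, and chance flags about 1 in 20 groups. All 4 concern line 2906, which had 1 array with a GAPDH ratio of 13.3, and further probe sets of the member genes, none of them a chosen one. For CLN3 MmugDNA.2519.1.S1_at, line 2906 read 7.60 on the log2 scale, against 8.90 to 9.08 in the other quadruplet lines (gap over range 0.876) and 8.83 to 9.05 in the other female lines (0.844). For TRABD2A MmugDNA.38738.1.S1_at it read 4.55, against 4.999 to 5.17 in the other female lines (0.725), and for UGGT1 MmugDNA.15617.1.S1_at 7.07, against 7.73 to 7.90 (0.795). The part of RNA quality in these values was not tested.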

How the results depend on the processing

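No family difference of the 7 chosen probe sets reversed under any alternative run. The differences ranged from −4.20 to −1.64 for CLN3, −3.48 to −1.14 for ZFTA, −2.54 to −1.23 for TRABD2A, −1.95 to −0.99 for FOXN1, −2.43 to −1.42 for UGGT1 and −1.72 to −0.83 for FZD3, with both ends from the pseudocounts of 1 and 64, and from 1.42 to 1.77 for GRINA, its upper end without the 4 arrays of highest median signal. Filters at the 75th percentile and on present calls dropped most members, which then had no value. Of 32856 probe sets, 25 differed between the families. The count was 14 with no filter, 10 with the 75th percentile filter, 11 with the present call filter, 9 with sex as a covariate, 196 with line weights, 350 with the line as a random block and 342 with the array letter as a replicate block, and 4 to 55 with 1 line left out (4 without 206 or 306, 55 without 2906). Among lines 2406, 3806 and 906, the 1550 became 795 with no filter, 785 without the 4 arrays of highest median signal, 881 without arrays of GAPDH ratio over 3, 17 with the array letter as a replicate block and 520 to 3872 with 1 array left out (3872 without array a of line 2406). Between the sexes, the 19 became 45 with the line as a random block and 34 with the letter block. Among lines 2406, 3806 and 906 the letter block left few degrees of freedom, so its count there does not measure an effect of letter. The cause of these changes was not tested.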

Other observations

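Probe sets of the genes that neighbour the members in the RefSeq gene order, chosen after values had been seen, were read in the family fit. Of 28 neighbours, the 2 nearest tested on each side of each member, 0 passed the adjusted limma test and 2 the unadjusted one. Their family differences lay between −0.68 and 0.61, with a median of 0.078, and the lowest adjusted p was 0.298, for ALDOC near FOXN1. Of all 11317 genes tested, 8 passed the adjusted test and 963 the unadjusted one.

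One probe set without a gene symbol, MmuMitochon.6.1.S1_s_at, also chosen after its values were seen, was present on 27 of 27 arrays. Its line means on the log2 scale were 11.13, 10.85, 11.73 and 10.86 in quadruplet lines 2706, 2906, 3006 and 3106, and 15.29, 15.32 and 15.18 in triplet lines 106, 206 and 306. They were 14.97 in line 2406, 15.36 in line 3806 and 13.21 in line 906. As for CLN3, line 3806 was near the triplet level and line 906 was the lowest of the 3 other lines. Unlike CLN3, line 906 lay above all quadruplet lines. This probe set was among the 25 that differed between the families, as were the chosen CLN3 probe set and MmuMitochon.4.1.S1_at (−1.32 ± 0.15, SE). Its likeness to CLN3 is given as a description, since both were picked for that contrast.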
